A study of Arabidopsis thaliana with 24 samples.

Results

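Protein kinases were taken from the gene annotation that accompanies the study's table of rates. Of the 1999 probe sets of that table used here, 82 had the words protein kinase in their annotation and not transcription factor. They measure 82 different transcripts or groups of transcripts, since 3 of the probe sets match a pair of neighbouring, similar genes each and cannot tell them apart. The annotation of 20 of them contains leucine-rich, and these are called leucine-rich repeat (LRR) receptor kinases below. None of the 82 annotations contains the word receptor, so receptor-like kinases of other families, such as THE1 and the lectin kinases, stand among the remaining 62. Those comprise 6 calcium-dependent kinases, 6 CBL-interacting or SNF1-related kinases, 7 regulatory subunits and cyclins, which bind kinases but do not phosphorylate proteins themselves, and 43 other kinases. Most of the table rows used here, 1594, lie on chromosome 5, as do 67 of the 82, so that the set is a sample of the plant's kinases and not their whole number. The table lists genes for which the study could compute rates at both temperatures. A transcript whose unlabeled pool did not fall was therefore less likely to be a member, and the main counts below are given beside those of the 1917 other rows of the same table.

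All samples were whole seedlings of the ecotype Columbia, with no mutation or transgene. They were germinated at 22°C, kept for 7 days at 17°C or 27°C with 12 h of light per day, and floated on MS medium for 12 h before the experiment. The labels give an age of 10 days, the methods a day more. Near dawn 4-thiouracil (4SU), an analog of uracil that ends up in RNA made after its addition, was added at 1.5 mM according to the labels, although the methods state that concentrations differed between conditions. Labeling lasted 2 h at 17°C and 1 h at 27°C. Total RNA was taken at time 0, without 4SU, and at the end of labeling, and the RNA of the end was split on streptavidin into newly synthesized (NS, labeled) and pre-existing (PE, unlabeled) RNA. With 4 kinds of RNA, both temperatures and 3 biological replicates, the data comprise 8 groups and 24 ATH1 arrays. In whole seedlings, fewer cells of a type and less RNA per cell cannot be told apart. Between time 0 and the end, 4SU exposure and the course of the morning changed together and cannot be told apart either. At the end of labeling, temperature, time since dawn and 4SU exposure differed together and cannot be told apart.

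Protein kinases transfer phosphate from ATP to other proteins and thereby switch them on or off. LRR receptor kinases span the plasma membrane, bind peptides, hormones or other proteins outside the cell with their leucine-rich repeats, and signal through a kinase domain inside. Calcium-dependent kinases carry their own calcium-binding domain, whereas CBL-interacting kinases are activated by calcium through partner proteins. SNF1-related kinases report energy status or, in the SnRK2 branch, osmotic stress and the hormone abscisic acid (ABA). Kinases form one of the largest gene families of plants, and many are expressed at modest levels.

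The deposited values were linear MAS5 signal intensities, and the mean of an array after trimming 2% at each end was 500.04 to 500.06. The analysis kept 57.1% of the 22746 probe sets that are not controls, by signal, and between replicates log2 signals correlated with a Pearson's r of 0.959 to 0.987 across the kept probe sets. Of the lists of tissue and stress markers only 1 of 8 green tissue genes, 2 of 10 root genes, 1 of 3 touch-induced genes and 0 of 5 low oxygen genes could be matched to a kept probe set. The green tissue gene read 15445 to 18725 in total RNA at time 0 and 18980 to 24117 at the end, and the 2 root genes summed to 9954 to 16555 over all total RNA arrays. The probe sets of the kinases had a median total RNA signal that was, at 17°C, 333 to 347 at time 0 and 275 to 301 at the end, and at 27°C 296 to 324 and 265 to 273, while the median over all kept probe sets lay between 461 and 493. Signals of different probe sets depend on their own probes and do not rank transcripts by abundance. Of the 82 members 79 were kept, among them 18 of the 20 LRR receptor kinases. The 3 dropped probe sets, those of the cyclin CYCA1;1 and of the LRR receptor kinases AT5G65240 and AT5G41180, were left out of all tests.

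Kinase transcripts were richer in newly synthesized RNA than the average transcript at both temperatures. A transcript is called here when its Benjamini-Hochberg adjusted p over all kept probe sets is under 0.01 and its fold exceeds 1.5, in limma. At 17°C 51 of the 79 were called higher in NS than in PE RNA and 1 lower, against 35.6% called higher and 21.7% lower over all kept probe sets. At 27°C 52 were called higher and 2 lower, against 37.6% and 17.8%. Of the 1891 other kept rows of the annotation table, 778 were called higher and 324 lower at 17°C, and 793 and 274 at 27°C. The median log2 of NS over PE signal was 1.04 at 17°C and 1.04 at 27°C in kinases, 0.43 and 0.48 in the other rows, and 0.29 and 0.37 over all kept probe sets. Since MAS5 gives NS and PE arrays the same mean, these values are relative to the average transcript of each fraction and not amounts of RNA.

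LRR receptor kinases stood at the upper end. Their median log2 of NS over PE was 1.57 at 17°C and 1.50 at 27°C, against 0.85 and 0.83 in the 61 other kept members. Computed replicate by replicate, the difference between both medians was 0.75 ± 0.23 at 17°C and 0.58 ± 0.19 at 27°C (SD, n = 3). At 17°C 15 of the 18 were called higher in NS RNA and none lower, and at 27°C 16 and none. All 3 NS arrays exceeded all 3 PE arrays for 16 of them at 17°C and for 17 at 27°C, against 43 and 44 of the 61 other members and 45.4% and 47.8% of all kept probe sets. With a list of 7 receptor-like kinases of other families moved to their side, the difference of medians was 0.85 at 17°C and 0.67 at 27°C. Of the 25 on that side 22 were called higher in NS RNA at 17°C and 23 at 27°C, so all 7 were called at each temperature. The list was picked by hand and left CRLK2, also a receptor-like kinase, among the others, so this difference depends on the choice of list.

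**Figure D1:**
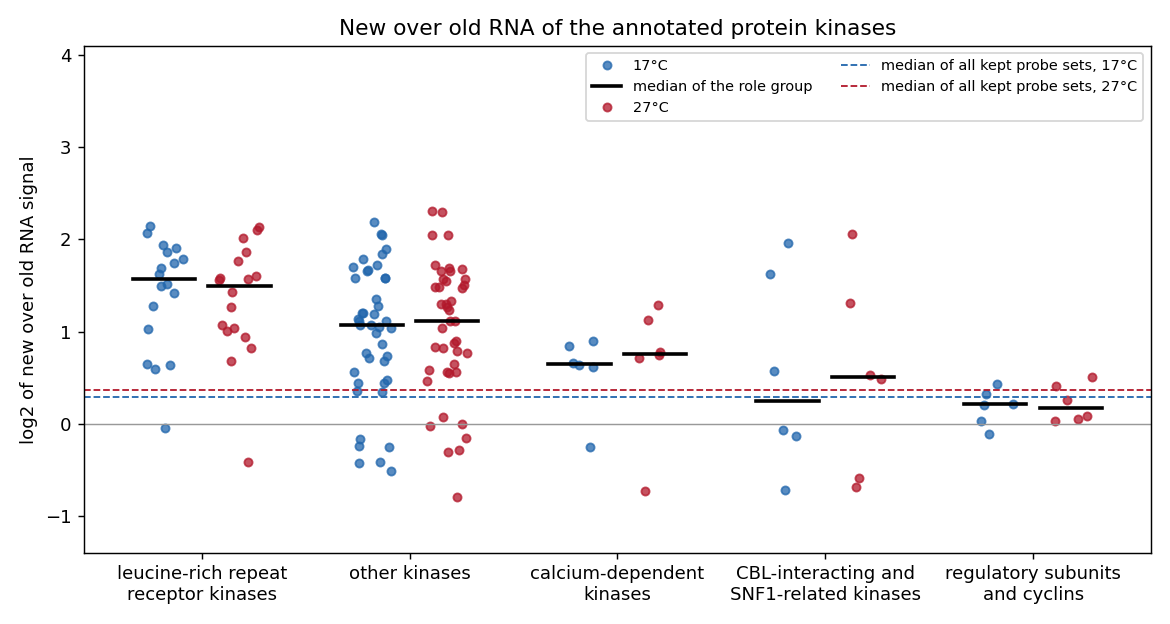
Log2 of newly synthesized over pre-existing RNA signal (vertical axis, difference of group means over 3 replicates) of the 79 kept members, by role (horizontal axis) and temperature. Black bars are medians and dashed lines the medians of all kept probe sets, 0.29 at 17°C and 0.37 at 27°C. LRR receptor kinases sit highest, with medians of 1.57 and 1.50, and regulatory subunits and cyclins lowest, with 0.21 and 0.17.

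The highest ratios of NS over PE RNA included those of kinases of the cell surface and of 1 CBL-interacting kinase. THE1, a receptor-like kinase that monitors the cell wall, read 2191, 1768 and 1723 in NS RNA at 17°C against 369, 456 and 419 in PE RNA. At 27°C its values were 1046, 1700.1 and 1096 against 326, 295 and 287. Neither pair of groups overlapped, with log2 ratios of 2.19 (SE 0.19, adjusted p = 5.82e-07) and 2.05 (SE 0.19, adjusted p = 1.21e-06). PSKR2, a receptor for the growth peptide phytosulfokine, read 603, 631 and 373 in NS and 103, 119 and 134 in PE RNA at 17°C, a log2 ratio of 2.14 (SE 0.22, adjusted p = 2.08e-06). For CIPK20, a kinase activated by calcium through CBL proteins, the NS values at 27°C were 1073, 962 and 992 and the PE values 274, 228 and 229, a log2 ratio of 2.05 (SE 0.15, adjusted p = 3.37e-07). NS arrays stood above PE arrays without overlap for both. The probe set shared by AT5G38990 and AT5G39000 had the log2 ratio 2.296 at 27°C, the one shared by AT1G73460 and AT1G73450 had 2.31, and the LRR receptor kinases AT5G67200 and AT5G10020 had 2.13 and 2.10. AT5G47070 read 2.04 at 17°C and 2.05 at 27°C, and AT2G33170 and the shared probe set of AT1G66920 and AT1G66910 read 2.07 and 2.06 at 17°C.

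A few kinases were richer in pre-existing RNA. CIPK23, which phosphorylates the potassium channel AKT1 and the nitrate transporter NRT1.1 in roots, read 334, 304 and 291 in NS and 546, 447 and 543 in PE RNA at 17°C. At 27°C the values were 399, 469.9 and 403 and 579, 753 and 598. PE arrays were higher without overlap at each temperature, and both log2 ratios were called, at -0.72 (SE 0.15, adjusted p = 0.000767) and -0.59 (SE 0.15, adjusted p = 0.00308). The call at 27°C was lost when NS replicate 1 or 3 or PE replicate 2 of 27°C was left out (adjusted p 0.0126 to 0.0159). BSK8, a brassinosteroid signaling kinase, was called lower in NS RNA at 27°C, with 144, 167 and 140.1 against 188, 331 and 285 and a log2 ratio of -0.80 (SE 0.23, adjusted p = 0.0065). This call was lost without NS replicate 1 or 3 or PE replicate 2 or 3 of 27°C (adjusted p 0.0210 to 0.0331). Among LRR receptor kinases BIR1, which restrains immune signaling together with the co-receptor BAK1, had the lowest ratio at both temperatures. It read 470.5, 582 and 515 in NS and 613, 848 and 644 in PE RNA at 27°C, and its log2 ratio of -0.41 (SE 0.17, adjusted p = 0.0446) did not pass the threshold.

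Regulatory subunits and cyclins did not share the high NS values of the receptor kinases. None of the 6 kept members was called in either direction at 17°C or 27°C. Their log2 ratios ran from -0.11 to 0.43 at 17°C and from 0.03 to 0.51 at 27°C, with medians of 0.21 and 0.17. The calcium-dependent kinases lay between, with medians of 0.64 and 0.76 and 4 of 6 called higher at each temperature, and CBL-interacting and SNF1-related kinases were spread from -0.72 to 1.96 at 17°C. Of 15 further protein kinases in the annotation table whose text lacks the words protein kinase, 13 were called higher in NS RNA at 17°C and 11 at 27°C, with medians of 1.18 and 1.16. These include LRR receptor kinases and were not divided by type. Of 17 protein phosphatases, which remove phosphate, 6 were called higher at each temperature, with medians of 0.11 and 0.22.

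The newly made share of each transcript at the end of labeling was computed after NS and PE signals had been scaled to their contributions to total RNA. For LRR receptor kinases the median share was 36.0%, 29.5% and 30.0% in the replicates at 17°C, after 2 h of labeling. For the other members it was 21.9%, 22.1% and 21.2%, and over all kept probe sets 16.3%, 15.9% and 16.02%. At 27°C, after 1 h, the medians were 47.3%, 42.7% and 41.5% for LRR receptor kinases, 34.0%, 35.4% and 33.5% for the others, and 26.6%, 26.6% and 26.5% for all. In every replicate of both temperatures the median of the LRR receptor kinases lay above that of the others. The size of the shares depended on the scaling. With 1 regression line per replicate the mean of the replicate medians was 25.1% for LRR receptor kinases, 16.7% for the others and 12.2% for all at 17°C. At 27°C it was 35.4%, 26.9% and 20.4%. Labeling times differed, so shares are not compared between temperatures. Single genes ranged widely: AT5G67200 reached 36.8% ± 6.80 at 17°C and 55.4% ± 5.75 at 27°C, PSKR2 41.4% ± 9.41 and 53.3% ± 7.58, and BIR1 only 13.3% ± 1.06 and 17.5% ± 1.13 (SD, n = 3).

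**Figure D2:**
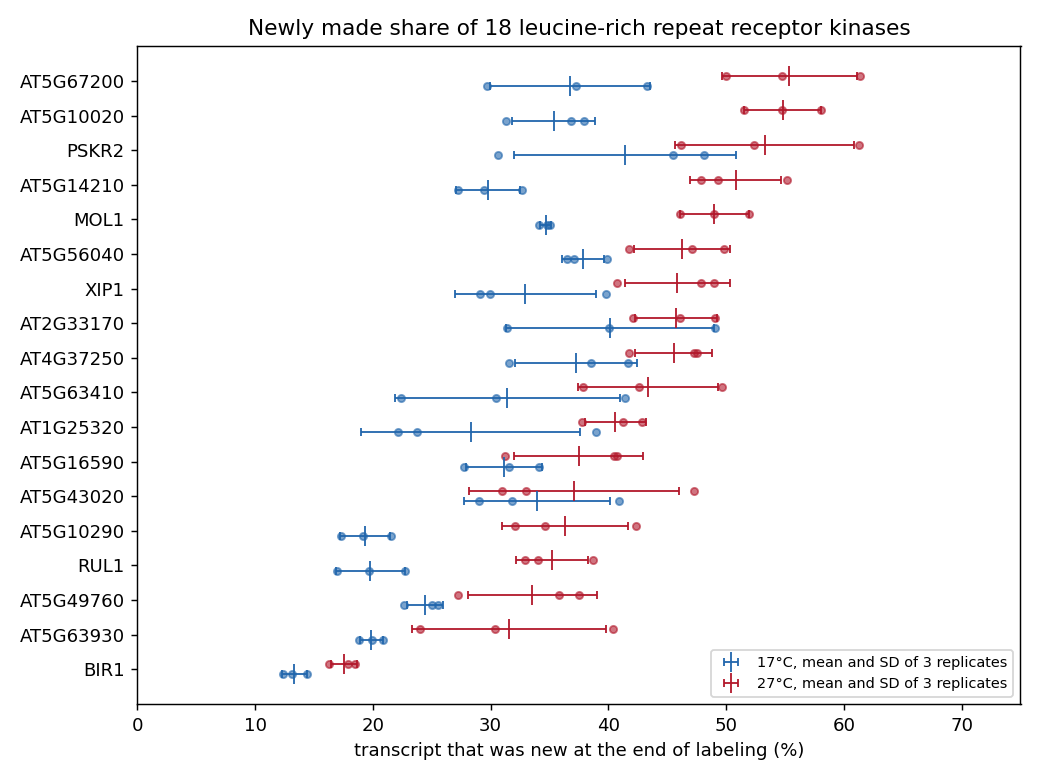
Share of each of the 18 kept LRR receptor kinase transcripts that was new at the end of labeling (horizontal axis, percent), at 17°C after 2 h and at 27°C after 1 h. Points are replicates, with mean and SD. AT5G67200 is highest at 27°C with 55.4% and BIR1 lowest with 17.5%.

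Longer genes offer more uridines for 4SU, and length was therefore set beside the receptor result, a step chosen after seeing the data. The median span of the gene, introns included, was 3448 bases in the 18 LRR receptor kinases, 3134 in the 58 other members with a span, and 2593.5 in 1782 other rows of the table. Among genes at or above the receptor median span, the median log2 of NS over PE at 17°C was 1.62 in LRR receptor kinases, 0.90 in other members and 0.70 in other rows. Among shorter genes it was 1.51, 0.57 and 0.31. At 27°C the order was the same on both sides, at 1.58, 1.12 and 0.76 for longer and 1.27, 0.58 and 0.41 for shorter genes. Across the 1782 other rows Spearman's rho between span and log2 ratio was 0.23 at 17°C and 0.21 at 27°C, over genes that share all arrays. The spans were those of the gene models and not of the mature transcripts, whose uridine content was not measured here. The part of transcript length in the receptor result was therefore not tested. Across its own genes the paper reports that neither rate was correlated with the length or the uracil content of the mRNA. Scaled NS and PE signals of LRR receptor kinases summed to a median of 1.05 ± 0.0609 of the total signal at 17°C and 0.998 ± 0.0922 at 27°C (SD, n = 3), against 0.987 and 0.983 over all kept probe sets.

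Half-lives could be computed at both temperatures for 63 members, including 12 LRR receptor kinases. Such a value needs the scaled PE signal to lie below that of time 0 in all 3 replicates, and the other 16 kept members failed this in at least 1 replicate. The median half-life was 2.85 ± 0.283 h at 17°C and 0.982 ± 0.0480 h at 27°C (SD, n = 3). Over all 6079 probe sets with rates it was 3.06 ± 0.136 h and 1.03 ± 0.0251 h. LRR receptor kinases had medians of 2.99 ± 0.325 h and 0.844 ± 0.102 h, and the other members 2.85 ± 0.357 h and 1.02 ± 0.0148 h. Decay was faster at 27°C in 41 of the 63, at an adjusted p under 0.05 in limma, against 64.3% of all probe sets with rates and 67.8% of the 1471 other rows with rates. It was slower in none, against 0.0494% of all and 0 of the other rows. By role the counts were 10 of 12 LRR receptor kinases, 21 of 36 other kinases, 5 of 6 regulatory subunits and cyclins, 3 of 4 CBL-interacting and SNF1-related kinases and 2 of 5 calcium-dependent kinases. Without replicate 1, 2 or 3 of 27°C the count over all members was 27, 27 or 25. Half-lives were imprecise, since only 33 of the 63 had an SD below 0.5 of the mean at both temperatures, and single values below were chosen among these.

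With time 0 as the starting level, the shortest half-lives at 27°C belonged to CIPK20, the LysM receptor-like kinase LYK3 and the LRR receptor kinase AT2G33170. CIPK20 half-lives were 1.14, 1.48 and 1.14 h in the replicates at 17°C and 0.405, 0.364 and 0.401 h at 27°C, and the values of both temperatures did not overlap. LYK3 had 1.58, 1.64 and 2.15 h and 0.460, 0.390 and 0.389 h. For AT2G33170 the means were 1.86 ± 0.745 h and 0.473 ± 0.0645 h. THE1 followed with 0.573 ± 0.0434 h at 27°C and AKINBETA1, a beta subunit of the energy-sensing SnRK1 complex, with 0.580 ± 0.0233 h. Decay was faster at 27°C for all 5, with adjusted p values from 0.00631 to 0.0084. Total RNA of all 5 fell during labeling at 27°C, so the end level as starting level would give longer half-lives. For LYK3 the unscaled PE signals at 27°C were 231, 266 and 210, beside 236, 256 and 246 in total RNA at the end. For AKINBETA1 they were 1361, 1473 and 1430, beside 1695, 1382 and 1286.

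At the other end stood AT5G22840 with 3.85 ± 1.19 h at 17°C and 3.18 ± 0.947 h at 27°C. CRN (CORYNE), a partner of CLAVATA2 in stem cell signaling, had 2.74 ± 1.06 h and 2.33 ± 0.866 h. For neither did decay differ between temperatures past the threshold, with adjusted p values of 0.545 and 0.632. D6PKL2, of a family that phosphorylates auxin exporters, LecRK-I.9, the receptor of extracellular ATP, and CKB2, a regulatory subunit of casein kinase CK2, came next, with 1.296 ± 0.144 h, 1.29 ± 0.404 h and 1.23 ± 0.0887 h at 27°C.

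**Figure D3:**
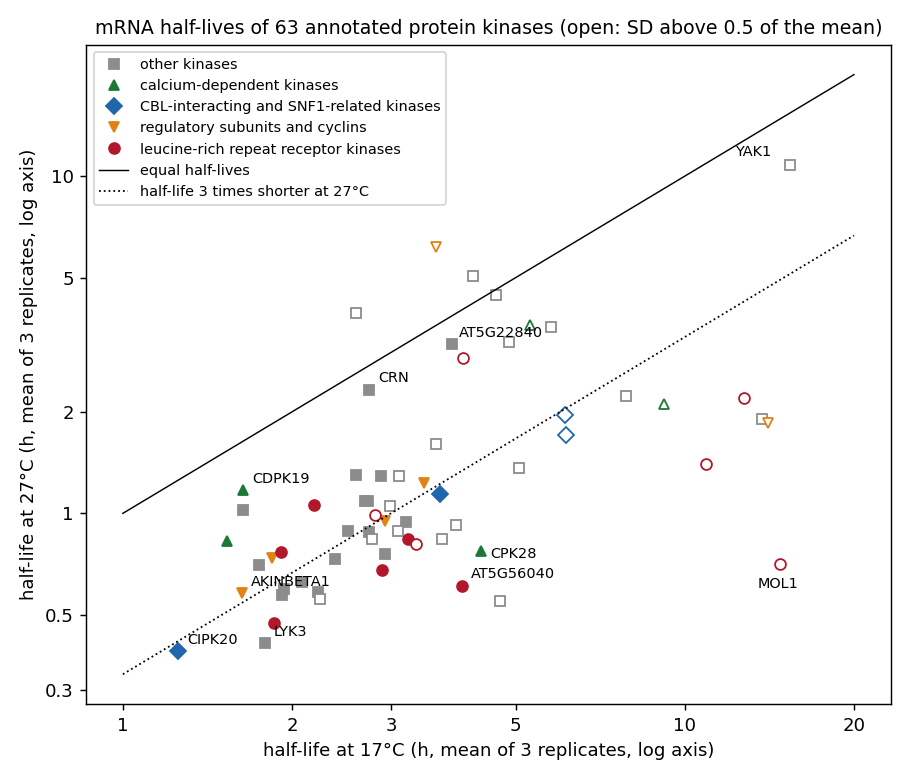
Mean half-life of 63 kinase transcripts at 27°C (vertical axis, h, log axis) against 17°C (horizontal axis, h, log axis), each over 3 replicates. Open symbols have an SD above 0.5 of the mean at a temperature, the solid line marks equal half-lives and the dotted line a half-life 3 times shorter at 27°C. CIPK20 is lowest with 1.26 h and 0.390 h, and MOL1 lies far right with 14.7 h and 0.706 h.

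Some half-lives at 17°C rested on PE signals close to those of time 0. MOL1, an LRR receptor kinase that restrains growth of the vascular cambium, had 22.4, 3.57 and 18.3 h at 17°C and a mean of 0.706 ± 0.118 h at 27°C. Its PE signal at 17°C was 82.4, 105 and 95.7 and its time 0 signal 74.3, 131 and 87.5. The starting level mattered in general. With total RNA at the end of labeling in place of time 0 the median of the members became 4.51 h at 17°C and 1.303 h at 27°C, that of all probe sets 4.91 h and 1.55 h. LRR receptor kinases then stood at 3.35 ± 0.0968 h and 1.13 ± 0.306 h, and the other members at 4.71 ± 0.544 h and 1.38 ± 0.159 h. At 17°C LRR receptor kinases thus had the shorter median half-life from the end level and the longer one from time 0, and with the mean of the time 0 arrays they had 3.54 h against 2.99 h. The cause was not tested. At 27°C the mean of their replicate medians was the shorter with each of these starting levels, at 0.927 h against 1.02 h from the mean of time 0. Single replicates could go the other way. Replicate 2 of 27°C had 1.40 h against 1.36 h from the end level and 1.09 h against 1.07 h from the mean of time 0. Replicate 1 of 17°C had 2.61 h against 3.04 h from time 0.

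Transcription was faster at 27°C for all 63 members at an adjusted p under 0.05, against 97.9% of all probe sets with rates and 98% of the 1471 other rows, and slower for none, against 0.0823% and 0.068%. The median rate was 46.5 ± 0.920 signal units per h at 17°C and 151 ± 7.69 at 27°C, against 41.5 and 145 over all probe sets with rates. LRR receptor kinases had medians of 54.0 ± 9.57 and 158 ± 11.9, the other members 44.1 ± 1.97 and 148 ± 10.7. This order depended on the starting level, since LRR receptor kinases had 47.2 and 125 against 48.9 and 158 from the end level, and 45.1 and 146 against 45.9 and 152 from the mean of time 0. The temperature coefficient Q10 is the factor by which a rate rises from 17°C to 27°C. The median Q10 of transcription was 3.32 for the members, from 1.54 to 8.04, and 3.45 over all. The median Q10 of decay was 3.12 for the members, from 0.587 to 20.9, and 2.99 over all.

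Both coefficients were unequal in single genes. Decay Q10 exceeded transcription Q10 in 9 of the 12 LRR receptor kinases, whereas transcription Q10 exceeded decay Q10 in 33 of the 51 other members and in 3558 of all 6079 probe sets. The medians were 4.01 for decay and 2.99 for transcription in LRR receptor kinases, and 3.08 and 3.34 in the other members. Among the protein kinases whose text lacks the words protein kinase, 13 had rates and transcription Q10 was the higher in 5. That list includes LRR receptor kinases and was not split, so it cannot show whether the pattern reaches beyond them. Their medians were 3.46 for decay and 3.04 for transcription. From the end level the medians were 3.17 for decay and 3.18 for transcription in LRR receptor kinases and 3.11 and 3.20 in the others, so that decay no longer exceeded transcription, although 8 of 12 LRR receptor kinases still had the higher decay Q10. From the mean of time 0 transcription Q10 was the higher in 6 of 16 LRR receptor kinases. These counts carry no test, and each Q10 rests on 3 replicates per temperature. The highest decay Q10 values among precise members were 6.56 in the LRR receptor kinase AT5G56040 and 5.60 in CPK28, a calcium-dependent kinase that limits immune signaling. LYK3 with 4.33 and the LRR receptor kinase AT1G25320 with 4.25 came next. The lowest were 1.18 in CRN, 1.21 in AT5G22840, 1.40 in the calcium-dependent kinase CDPK19 and 1.60 in CRLK2, a receptor-like kinase regulated by calmodulin, and none of these 4 had a decay difference past the threshold.

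SNRK2.3, a core kinase of the ABA response, had the highest transcription Q10, 8.04. Its rates were 19.7, 20.3 and 27.8 signal units per h in the replicates at 17°C and 172, 179.9 and 193 at 27°C, with no overlap. Among members with precise half-lives AT5G11850 with 4.82, AT5G40540 with 4.71 and CPK28 with 4.18 followed, and the lowest coefficients belonged to the LRR receptor kinases AT2G33170 and AT4G37250, with 1.54 and 1.88, and to AT5G63940 and THE1, with 2.29 and 2.64. AT2G33170 was transcribed at 79.6, 54.5 and 47.4 signal units per h at 17°C and 96.8, 106 and 76.2 at 27°C, and the ranges of both temperatures overlapped.

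**Figure D4:**
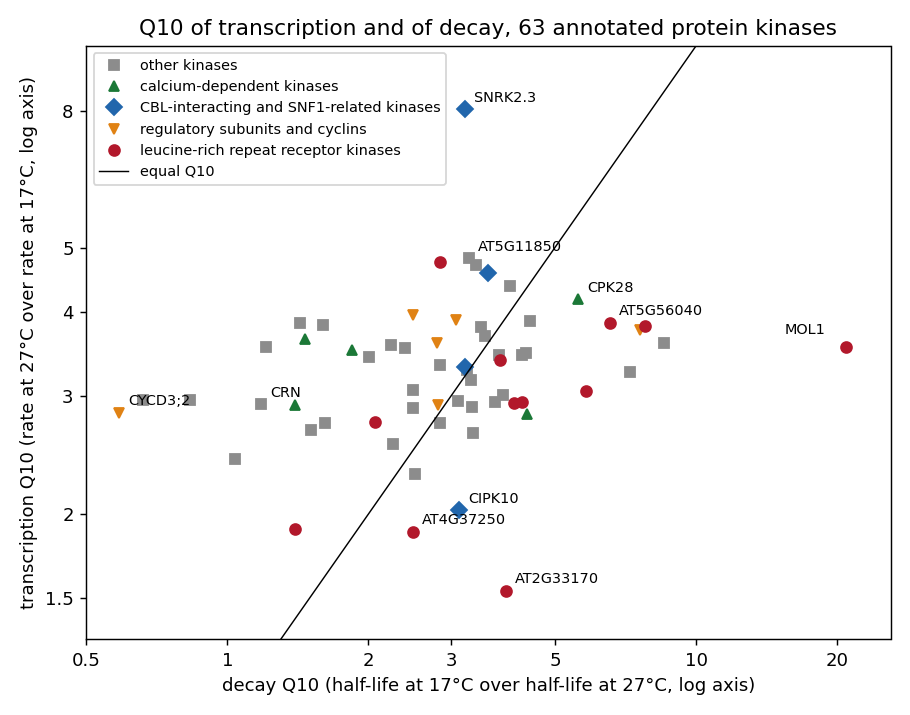
Q10 of transcription (vertical axis, rate at 27°C over 17°C, log axis) against Q10 of decay (horizontal axis, half-life at 17°C over 27°C, log axis) of 63 kinase transcripts, each a ratio of means over 3 replicates, with a line of equality. SNRK2.3 stands highest at 8.04 and MOL1 farthest right at 20.9, and 9 of the 12 LRR receptor kinases lie below the line.

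In the hours after dawn some kinase transcripts fell in total RNA at each temperature. At 17°C 8 of the 79 were called lower at the end than at time 0 and none higher, against 6.53% lower and 5.79% higher over all kept probe sets. At 27°C 16 were called lower and 1 higher, against 14.5% and 11.2%. Increases were as rare in the other 1891 rows, with 0 called higher at 17°C and 13 at 27°C against 196 and 427 called lower. Since a falling PE signal was needed for a place in that table, the direction of these counts is partly set by how members were chosen. Of the LRR receptor kinases none was called lower at 17°C and 4 at 27°C. The 1 touch-induced gene matched read 327 to 437 at time 0 and 334 to 382 at the end at 17°C, and 434 to 730 and 333 to 341 at 27°C. Its part in these changes was not tested.

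LYK3 had the largest fall of the members. At 27°C it read 802, 1209 and 960.2 at time 0 and 236, 256 and 246 at the end, with no overlap and a log2 change of -1.99 (SE 0.17, adjusted p = 1.65e-06). At 17°C the values were 612, 562 and 461 and 342, 391 and 287, and the change of -0.68 (SE 0.17, adjusted p = 0.0104) just missed the threshold. The difference between both changes, -1.31 (SE 0.24, adjusted p = 0.00606), was the only one called among the members, against 1.62% called lower and 0.7% called higher over all kept probe sets and 20 and 3 of the 1891 other rows. It was lost in 8 of the 12 fits that left out 1 total RNA array (adjusted p 0.0110 to 0.0169). These were replicates 2 and 3 of time 0 and 1 and 2 of the end at 17°C, and replicate 3 of time 0 and each of the 3 of the end at 27°C.

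CIPK20 and AKINBETA1 fell at both temperatures. CIPK20 read 831, 680.4 and 1059.9 at time 0 and 374, 482 and 519.7 at the end at 17°C, and 1165, 1179 and 995 and 389, 407 and 436 at 27°C. The log2 changes were -0.89 (SE 0.17, adjusted p = 0.00201) and -1.44 (SE 0.17, adjusted p = 2.33e-05), with no overlap in either, and the call at 17°C was lost without replicate 3 of time 0 or replicate 1 of the end (adjusted p 0.0105 to 0.0116). AKINBETA1, the brightest of the members, read 3309.9, 3134 and 3649 and then 1516, 1794 and 1974 at 17°C, and 3544, 3867 and 3448 and then 1695, 1382 and 1286 at 27°C. It fell by 0.94 and 1.32 on the log2 scale (adjusted p = 0.000417 and 1.17e-05), and time 0 and end did not overlap.

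Among further members called lower at 17°C were the probe set shared by AT5G38990 and AT5G39000, at -1.14 (SE 0.18, adjusted p = 0.00043), and the calcium-dependent kinase AT5G24430, at -1.09 (SE 0.16, adjusted p = 0.000245). CDPK19 read 1144, 1138 and 1146 at time 0 and 634, 657 and 603 at the end, a change of -0.86 (SE 0.17, adjusted p = 0.00209), and the groups lay far apart. CRLK2 changed by -0.86 (SE 0.21, adjusted p = 0.00907), a call that 8 of 12 left-out arrays ended (adjusted p 0.01001 to 0.0440), namely each array of 17°C, replicate 1 of time 0 and replicate 2 of the end at 27°C. At 27°C the LRR receptor kinase AT1G25320 changed by -1.12 (SE 0.18, adjusted p = 0.000218), BSK8 by -1.09 (SE 0.19, adjusted p = 0.000431) and AT5G44290 by -1.08 (SE 0.15, adjusted p = 8.24e-05). AT5G67200 was the only member called higher at the end, with 84.1, 78.0 and 72.0 at time 0 and 162, 133 and 158 at the end at 27°C. Its change was 0.95 (SE 0.22, adjusted p = 0.00297), without overlap, and the call was lost without replicate 3 of time 0 or replicate 1 or 3 of the end (adjusted p 0.0126 to 0.0136).

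**Figure D5:**
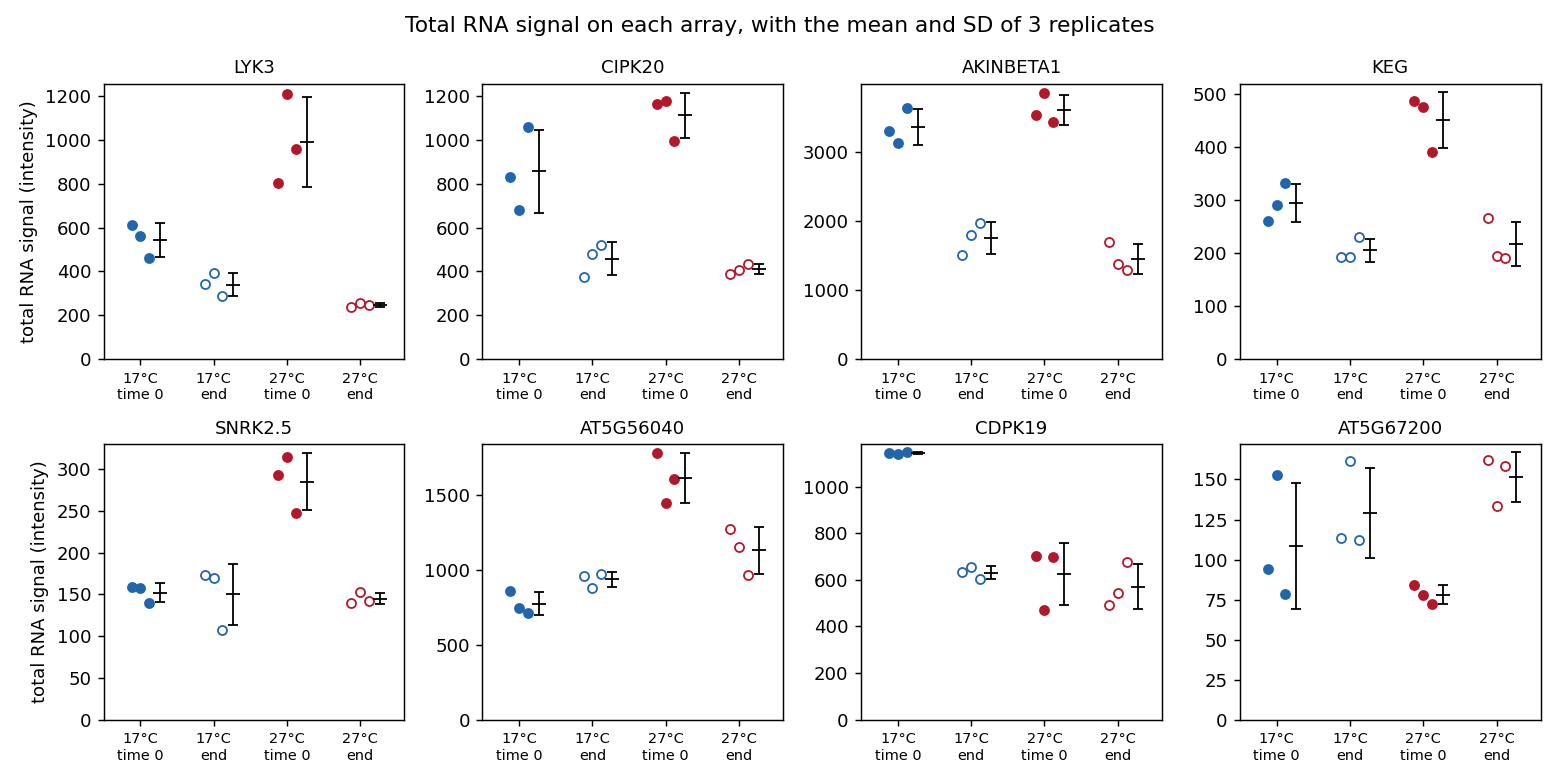
Total RNA signal (vertical axes, intensity on a linear scale from 0) of 8 kinase transcripts on the 12 total RNA arrays, by temperature and time (horizontal axes). Points are arrays, bars the mean and SD of 3 replicates. LYK3 falls from 802 to 1209 at time 0 to 236 to 256 at the end at 27°C, and CDPK19 lies between 1138 and 1146 only at 17°C and time 0.

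At the end of labeling few kinase levels differed between temperatures. At this point 1 of the 79 was called lower at 27°C and none higher, against 5.85% and 4.97% over all kept probe sets, and the median log2 difference was 0.00. Among the 1891 other rows 73 were called higher and 95 lower. The 1 member was AT5G50180, with 467, 509.6 and 446 at 17°C and 329, 263 and 341 at 27°C, which did not overlap, and a difference of -0.62 (SE 0.14, adjusted p = 0.0072). Leaving out replicate 1 or 3 of time 0 at 17°C or any array of the end ended the call (adjusted p 0.0106 to 0.0351). By limma 16 of the 79 had an unadjusted p under 0.05, against 34.9% of all kept probe sets and 33.1% of the other rows. They were 8 of the 18 LRR receptor kinases and 8 of the 61 other members.

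At time 0, before 4SU, 7 members were called higher at 27°C and 4 lower, against 10.7% and 12.1% over all kept probe sets and 217 and 119 of the 1891 other rows. The LRR receptor kinase AT5G56040 read 861, 747 and 714 at 17°C and 1782, 1446 and 1609 at 27°C, a difference of 1.06 (SE 0.14, adjusted p = 7.48e-05). At the end its values were 957, 878 and 975 and 1272, 1150.2 and 965, and the difference of 0.26 (SE 0.14, adjusted p = 0.21) was not called. SNRK2.5, of the SnRK2 family, showed the same course, with 159, 158 and 139 at 17°C and 294, 314 and 248 at 27°C at time 0 and 173, 169.6 and 108 and 140.3, 153 and 142 at the end. It was called at time 0, at 0.90 (SE 0.17, adjusted p = 0.00116), when groups did not overlap, and lay at -0.02 (SE 0.17, adjusted p = 0.955) at the end. SNRK2.3 read 362, 306 and 436 and 635, 645 and 564 at time 0, also without overlap, a difference of 0.75 (SE 0.15, adjusted p = 0.00164). Further members called higher at time 0 were LYK3 at 0.85 (SE 0.17, adjusted p = 0.00151), AT5G44290 at 0.89 (SE 0.15, adjusted p = 0.000423), BIR1 at 0.66 (SE 0.17, adjusted p = 0.00779) and KEG, a ubiquitin ligase with a kinase domain that holds ABA signaling in check, at 0.62 (SE 0.16, adjusted p = 0.00808). The BIR1 call did not survive the omission of any array of 17°C at time 0, replicate 2 or 3 of 27°C at time 0 or any array of 27°C at the end (adjusted p 0.0101 to 0.0395). That of KEG was lost without replicate 1 or 2 of 17°C, at time 0 or at the end, or of 27°C at time 0 (adjusted p 0.0102 to 0.0413).

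Lower at 27°C at time 0 was CDPK19, with 1144, 1138 and 1146 at 17°C and 704, 471 and 699.6 at 27°C and a difference of -0.89 (SE 0.17, adjusted p = 0.000875). The groups stood apart at time 0 and overlapped at the end, at 634, 657 and 603 and 492, 546 and 676. AT5G50180 read 474, 554 and 495 at 17°C and 317, 318 and 262 at 27°C, a difference of -0.76 (SE 0.14, adjusted p = 0.000896). The remaining calls were the LRR receptor kinase AT5G14210 at -0.81 (SE 0.20, adjusted p = 0.00529) and AT5G26110 at -0.73 (SE 0.17, adjusted p = 0.00459). AT5G14210 lost its call without replicate 1 or 2 of 17°C or replicate 2 or 3 of 27°C at time 0 (adjusted p 0.0101 to 0.0271), and AT5G26110 without replicate 2 or 3 of 17°C or replicate 1 or 2 of 27°C at time 0 (adjusted p 0.0111 to 0.0244).

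Within newly synthesized RNA 4 members were called lower at 27°C than at 17°C and 1 higher, against 5.81% and 6.10% over all kept probe sets and 120 and 78 of the 1891 other rows. Labeling was shorter at 27°C, and each value is relative to the average transcript of its array. The 1 that rose was SNRK2.3, with 237, 263 and 334 at 17°C and 589, 644 and 630.3 at 27°C. All 27°C arrays lay above those of 17°C, and the difference was 1.17 (SE 0.17, adjusted p = 0.000389). AT2G33170 fell, with 732, 636 and 469 at 17°C and 214, 272 and 183 at 27°C and a difference of -1.45 (SE 0.21, adjusted p = 0.00039). Another pair of LRR receptor kinases was lower without overlap, AT4G37250 at -0.89 (SE 0.18, adjusted p = 0.00368) and AT5G16590 at -0.80 (SE 0.18, adjusted p = 0.00665). AT4G37250 lost its call without replicate 1 or 3 of NS RNA at either temperature (adjusted p 0.0145 to 0.0170). AT5G16590 lost it without any NS array of 17°C, PE replicate 3 of 17°C or NS replicate 1 or 3 of 27°C (adjusted p 0.0103 to 0.0344). CIPK10 read 1447, 1255 and 1125 at 17°C and 709, 816 and 642 at 27°C, a difference of -0.82 (SE 0.15, adjusted p = 0.00229). Without replicate 3 of NS RNA at 27°C the count of called members was 2 in place of 5. Without replicate 1 or 3 of NS RNA at 17°C it was 3.

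Pre-existing RNA differed between temperatures in 4 members, all lower at 27°C, against 5.49% lower and 3.39% higher over all kept probe sets and 86 and 43 of the other rows. AT2G33170 read 120.3, 150.3 and 162 at 17°C and 62.8, 90.3 and 71.5 at 27°C, a difference of -0.95 (SE 0.21, adjusted p = 0.0072). AT5G14210, at -0.73 (SE 0.13, adjusted p = 0.00242), and AT5G50180, at -0.73 (SE 0.15, adjusted p = 0.00469), were also lower, as was the shared probe set of AT1G73460 and AT1G73450 at -0.65 (SE 0.14, adjusted p = 0.00536). No array of 27°C reached those of 17°C in any of the 4. All 4 calls depended on single arrays, and without PE replicate 2 of 17°C none of the members was called. Without PE replicate 1 or 3 of 17°C or replicate 3 of 27°C the counts were 2, 1 and 1.

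The small families differed among themselves over the 8 groups. Of the calcium-dependent kinases CPK28 and AT5G24430 fell at 27°C, by 0.70 and 0.89 on the log2 scale (adjusted p = 0.00717 and 0.000506). The CPK28 call was lost without replicate 3 of time 0 at 17°C, any array of time 0 at 27°C or replicate 1 or 3 of its end (adjusted p 0.01004 to 0.0374). CPK1 read 410.3, 337 and 392 in NS and 248, 209 and 180.5 in PE RNA at 17°C, a log2 ratio of 0.85 (SE 0.17, adjusted p = 0.000617). CPK7 was the one calcium-dependent kinase with more PE than NS signal, with 139, 218 and 63.0 in NS and 208, 248 and 168 in PE RNA at 27°C, and its groups overlapped. AT3G56760 was called higher in NS RNA, at 0.62 at 17°C and 1.13 at 27°C, and in none of the comparisons of total RNA. Total RNA of CIPK21 ranged from 83.9 to 175 over the 12 arrays and passed no test there, nor was its NS over PE ratio called at 17°C or 27°C.

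Among the regulatory subunits RCY1, an arginine-rich cyclin, was called lower at the end at both temperatures, at -0.73 (SE 0.18, adjusted p = 0.00966) and -0.98 (SE 0.18, adjusted p = 0.000732). The first of these calls was lost in 8 of the 12 fits without 1 array (adjusted p 0.0116 to 0.0522), those without replicate 1 or 3 of time 0 or 2 or 3 of the end at 17°C, any array of time 0 or replicate 3 of the end at 27°C. CKB1 and CKB2 were not called in any comparison. CKB2 read 2219.9, 2247 and 2063 at time 0 and 1810.0, 1479.8 and 1896 at the end at 17°C, and 2049, 2057 and 2156 and 1649.7, 1758 and 1591 at 27°C, changes of -0.34 and -0.33 on the log2 scale. Half-lives of CKB1 were 2.92 ± 0.247 h at 17°C and 0.951 ± 0.0837 h at 27°C. AT4G16360, a further SnRK1 beta subunit, was called in no comparison of total RNA, with 635, 709 and 594 at time 0 and 594, 633 and 605 at the end at 27°C and a change of -0.08 (SE 0.14, adjusted p = 0.673). For CYCD3;2, a cyclin of the entry into the cell cycle, total RNA at time 0 was 1965, 1678 and 2213 at 17°C and 1218, 1500.0 and 1408 at 27°C, and the difference of -0.50 (SE 0.14, adjusted p = 0.0128) did not pass the threshold although groups did not overlap.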

How the data were processed

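Samples were grouped by temperature, kind of RNA and time from their labels. The deposited intensity values are signals that the authors made with MAS5, whose version was not given in the sources used here, and all arrays share a trimmed mean. A set of 64 control probe sets was left out. Detection calls were not used, and the probe sets were ranked by their lowest signal on the 12 total RNA arrays and kept from 48.25 upward, in the number that the methods called present. Replicates are described as biological by the study.

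Log2 signals were compared by the linear models of limma 3.58.1 (moderated by eBayes, R 4.3.3), total RNA arrays in 1 fit and NS and PE arrays in another, with p-values adjusted over all kept probe sets. Correction factors came from regressing PE/total on NS/total, 1 line per temperature (r squared 0.347 at 17°C and 0.293 at 27°C), and half-lives and transcription rates from the equations of the methods within each replicate. Q10 is a ratio of replicate means. Both procedures were tested on simulated data with known answers. The simulated rates had little noise and decay in every transcript, so that test checks the computation and not the precision of the rates here.

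Members, gene lists and comparisons were chosen with earlier results of these data known. Named genes are up to 6 called members per direction and comparison with the largest change, the 5 shortest and longest half-lives at 27°C and 4 highest and lowest of each Q10 among those with an SD below 0.5 of the mean, and all members of the small families. KEG at time 0, MOL1, and BIR1 among NS over PE ratios were named outside this rule, after their values were seen. Same-numbered NS and PE arrays deviated together (r 0.235 to 0.330 at 17°C and 0.151 to 0.211 at 27°C), as fractions of 1 RNA sample, whereas time 0 and end arrays did not. Alternatives were quantile normalization, log2(signal + 16), no filter, a replicate block, other starting levels, 1 regression line per replicate, other member lists and each array left out. Protein sequence features were not analysed here.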

Additional observations from a re-analysis of the deposited data

Results flagged for a closer look

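LYK3, a LysM receptor-like kinase, changed differently at both temperatures. Its fall in total RNA between time 0 and the end of labeling was larger at 27°C than at 17°C by -1.31 on the log2 scale (SE 0.24, adjusted p = 0.00606 in limma's test of the difference). All 3 arrays of the end lay below all 3 of time 0 at each temperature. Labeling lasted 1 h at 27°C and 2 h at 17°C, so the larger fall came in the shorter time. The call was lost without a filter on low signal and in 8 of the 12 fits without 1 array. The cause was not tested.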

How the results depend on the processing

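None of the 49 named calls changed direction, but the order of LRR receptor kinases and other members in median half-life at 17°C turned from 2.99 against 2.85 h to 3.35 against 4.71 h from the end level, and that in transcription rate from 54.0 against 44.1 to 47.2 against 48.9. Of the 49 named calls, each under 16 alternatives, 672 of 784 were kept and 112 lost, 82 of them in 588 fits without 1 array and 30 in 196 other settings, 21 of these without a filter. Among counts of called members, that at the end of labeling went from 1 to 0 without a filter and with a replicate block, and ranged from 0 to 1 with 1 array left out. At time 0 the count of 11 became 4 without a filter and ranged from 7, without replicate 2 of 27°C at time 0, to 12. The change at 17°C, 8 members, became 5 with quantile normalization and 3 without a filter, and ranged from 4 to 8, with 4 without replicate 3 of time 0 and 5 without replicate 1 of time 0 or 2 or 3 of the end. At 27°C the count of 17 ranged from 13 to 19. The difference of both changes, 1 member, became 0 without a filter and ranged from 0 to 2. For NS RNA between temperatures 5 became 3 without a filter, with a range of 2 to 6, and for PE RNA 4 became 0 with quantile normalization and 0 without a filter, with a range of 0 to 4. NS against PE RNA gave 47 to 54 at 17°C and 50 to 55 at 27°C with 1 array left out, and 44 and 43 with quantile normalization. Faster transcription ranged from 62 to 68 members and faster decay from 25 to 42 with 1 replicate left out, and over the other settings from 54 to 74 and from 34 to 57. The number of members with rates changed with the setting too. It was 63 in the main setting, 54 from the end level, 74 from the mean of time 0 and 54 with 1 regression line per replicate.

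With the replicate block, which the shared number of NS and PE arrays warrants within a temperature, 53 and 55 members were called between NS and PE RNA at 17°C and 27°C, and the counts were 8 at time 0, 9 and 17 for the changes at 17°C and 27°C, 6 for NS and 4 for PE RNA, 63 for transcription and 39 for decay. Time 0 and end arrays share only a number (17°C, r from -0.00532 to 0.160, and 27°C, r from 0.0238 to 0.0387).

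The median half-life at 17°C became 4.51 h from the end level and ranged from 2.85 to 3.18 h with 1 replicate left out. At 27°C it became 1.303 h from the end level and 1.04 h with 1 regression line per replicate, with a range of 0.984 to 1.06 h. The median transcription rate at 17°C became 49.0 from the end level, 45.0 from the mean of time 0, 35.4 with 1 line per replicate and 42.8 without shared probe sets and regulators, and ranged from 40.1 to 46.5. At 27°C it became 111 and 144 in the last 2 of these settings and ranged from 133 to 152. The median Q10 ranged from 2.97 to 3.72 for transcription and from 2.96 to 3.15 for decay with 1 replicate left out. The difference between LRR receptor kinases and other members in log2 NS over PE stayed between 0.62 and 0.84 for 17°C and between 0.47 and 0.65 for 27°C with 1 replicate left out, and was 0.64 and 0.51 without shared probe sets and regulators. Signals near background and 3 replicates per group limit the precision.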
